A study of Mus musculus with 2 samples.

Results

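Glycolysis and the response to low oxygen were examined in mouse primary chondrocytes and primary dermal fibroblasts through 41 genes. They comprised glucose and lactate transporters, glycolytic enzymes, the subunits of the hypoxia-inducible factor (HIF), the proteins that degrade it, and well-known HIF targets. The genes were found by their symbols, and all 41 had a row among the 24421 rows of the RNA-Seq count table. A total of 40 had at least 10 reads over both libraries, and the remaining gene, *Eno1*, was listed at 0 in each. The chondrocyte library came from the rib cartilage of newborn mice, digested with collagenase, and the cells were used within 2 passages. The dermal fibroblast library came from collagenase-digested dorsal skin of newborn mice. Neither group carried a named allele or received an agent, and strain, pooling and the oxygen level of the cultures were not given in the sources used here. RNA-Seq in the study served to find genes expressed more strongly in chondrocytes.

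Glycolysis turns glucose into pyruvate, and lactate dehydrogenase turns pyruvate into lactate, so that ATP can be made without oxygen. HIF consists of an oxygen-regulated alpha subunit and the stable partner ARNT. With oxygen present, prolyl hydroxylases of the EGLN family mark the alpha subunit, the VHL ubiquitin ligase recognises it and it is degraded; in low oxygen it persists and activates glycolytic and other genes through short hypoxia response elements. Cartilage has no blood vessels, and chondrocytes are known for their reliance on glycolysis and on HIF-1α.

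There was 1 library per cell type, so no difference has a replicate check, no p-value was computed, and each 95% interval given with a fold covers the counting error of these libraries only. The libraries held 18788599 reads (chondrocytes) and 17563724 reads (dermal fibroblasts). Levels are given as scaled CPM, that is, reads per 1000000 reads after adjustment of each library size by the trimmed mean of M-values (TMM), and a fold is the scaled CPM of chondrocytes over that of dermal fibroblasts unless the other direction is stated. Where 2 values are given side by side, that of chondrocytes comes first. The labels were checked with markers. All 8 chondrocyte markers were over 2-fold higher in chondrocytes, with summed levels of 109188 and 66.4 scaled CPM, and *Col2a1* and *Matn1* were at 0 in dermal fibroblasts. Of 8 dermal fibroblast markers, 7 were over 2-fold higher in dermal fibroblasts and *Lum* was not. Both preparations also held transcripts of other cells. The 10 skeletal muscle markers summed to 2121 scaled CPM in chondrocytes and 1489 in dermal fibroblasts, with 4 over 2-fold higher in chondrocytes and none at 0. Hypertrophic chondrocyte markers were over 2-fold higher in chondrocytes for 5 of 6 genes (1324 and 244 scaled CPM summed). In the opposite direction, 5 of 7 keratinocyte markers (9.04 and 256 scaled CPM summed) and 1 of 7 macrophage markers (107 and 169) exceeded 2-fold in dermal fibroblasts. The cell types also differed in how they were isolated, since skin was digested longer and in the cold, and cell type and isolation cannot be told apart. In bulk RNA, fewer cells of a type and less RNA per cell cannot be told apart.

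Some of these genes have near-identical copies in the genome, which limits what their reads show. To see this, the longest coding transcript of each gene was divided into 75-base windows, the read length, and exact matches elsewhere in the NCBIM37 genome were counted. No window of 28 genes was found elsewhere, but for 10 genes at least 10% of windows were. The share was 91.4% for *Pgk1* (4 other places), 88.9% for *Pgam1* (5), 85.4% for *Gapdh* (120), 65.4% for *Eno1* (6) and 43.0% for *Bnip3* (3). For *Pkm*, *Ldhb*, *Gpi1*, *Higd1a* and *Tpi1* it lay between 12.5% and 22.5%. How the counting treated such reads was not given in the sources used here, so the counts of these genes are uncertain.

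The bases before the start of 6 of these genes are shown because they hold the letters of the hypoxia response element core and because the genes lay on opposite sides of the comparison described next. The first 4 genes were higher in chondrocytes and the last 2 were higher in dermal fibroblasts. Each line gives the 250 bases before the most upstream start in the RefSeq promoter table (GRCm38.p6), 5′ to 3′ on the strand of the gene. Capitals mark ACGTG or GCGTG, or the same letters on the other strand, read here as CACGT and as CACGC.
*Car9*, chr4:43506776-43507025, plus strand: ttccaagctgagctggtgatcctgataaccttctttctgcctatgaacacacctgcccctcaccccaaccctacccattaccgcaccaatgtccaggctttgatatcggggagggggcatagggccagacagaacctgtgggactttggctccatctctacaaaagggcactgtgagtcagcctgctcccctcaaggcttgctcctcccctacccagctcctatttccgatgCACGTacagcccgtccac
*Bnip3*, chr7:138909507-138909756, minus strand: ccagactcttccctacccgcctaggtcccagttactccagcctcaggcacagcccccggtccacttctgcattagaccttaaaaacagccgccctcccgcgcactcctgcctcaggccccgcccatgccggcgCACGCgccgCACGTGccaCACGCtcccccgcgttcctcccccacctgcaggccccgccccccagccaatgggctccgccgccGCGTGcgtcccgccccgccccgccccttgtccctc
*Slc2a1*, chr4:119108495-119108744, plus strand: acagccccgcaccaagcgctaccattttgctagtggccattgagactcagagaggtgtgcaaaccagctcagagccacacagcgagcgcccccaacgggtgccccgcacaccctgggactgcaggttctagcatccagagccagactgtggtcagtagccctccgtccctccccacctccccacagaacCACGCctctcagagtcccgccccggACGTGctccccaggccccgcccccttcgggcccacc
*Pgk1*, chrX:106186850-106187099, plus strand: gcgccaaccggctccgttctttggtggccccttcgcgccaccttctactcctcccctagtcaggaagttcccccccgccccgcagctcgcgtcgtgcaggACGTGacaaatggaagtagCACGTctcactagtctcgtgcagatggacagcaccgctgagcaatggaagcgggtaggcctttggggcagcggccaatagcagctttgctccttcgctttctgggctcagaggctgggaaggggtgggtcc
*Adm*, chr7:110627407-110627656, plus strand: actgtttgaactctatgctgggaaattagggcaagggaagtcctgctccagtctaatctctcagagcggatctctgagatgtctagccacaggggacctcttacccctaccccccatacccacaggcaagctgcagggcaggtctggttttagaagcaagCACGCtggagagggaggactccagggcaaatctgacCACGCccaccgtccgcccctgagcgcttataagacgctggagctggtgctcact
*Ddit4*, chr10:59951771-59952020, minus strand: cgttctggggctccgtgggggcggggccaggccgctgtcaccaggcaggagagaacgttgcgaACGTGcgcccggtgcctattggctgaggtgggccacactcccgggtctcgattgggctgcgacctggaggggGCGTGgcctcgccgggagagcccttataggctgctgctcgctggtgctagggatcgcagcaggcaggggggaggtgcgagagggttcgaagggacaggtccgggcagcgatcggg
The core of *Car9* began at position -18 relative to the start, and *Slc2a1* had 1 core at -61 and another at -36. The pair in *Pgk1*, at -150 and -131, pointed in opposite directions.

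Of the 40 genes with reads, 27 were higher in chondrocytes and the other 13 were higher in dermal fibroblasts. A fold over 2 in favour of chondrocytes was found for 14 genes (35.0%), against 12.0% of the 14730 genes with at least 10 reads. A fold over 2 in favour of dermal fibroblasts was found for 5 genes (12.5%), near the background of 16.2%. The whole counting interval lay beyond 2-fold in favour of chondrocytes for 11 of the 40 genes (27.5%, background 7.00%) and in favour of dermal fibroblasts for 4 of the 40 genes, close to the background of 10.5%. The median log2 fold of the 40 genes was 0.47, against 0.00 for all genes with at least 10 reads. Without the genes that had at least 10% of windows elsewhere, 11 of 31 genes were over 2-fold higher in chondrocytes and 5 in dermal fibroblasts, and the median log2 fold was 0.20. The window search covered the 41 genes only, so these values have no share or median of all genes under the same filter beside them. At 1.5-fold, 16 of the 40 genes (background 20.2%) favoured chondrocytes and 5 (12.5%, background 24.5%) dermal fibroblasts. At 4-fold these were 3 of the 40 genes (background 4.84%) and 2 of the 40 genes (background 6.31%). Among the 38 genes with at least 100 reads, 14 and 5 were over 2-fold apart, against 8.76% and 13.3% of the 11811 genes with that many reads. Scaling by total counts left 10 genes over 2-fold higher in chondrocytes, and *Ldha*, *Slc16a1*, *Pfkm* and *Egln3* then fell short. The background shares are given for TMM scaling only, so this number has no share of all genes beside it.

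**Figure D1:**
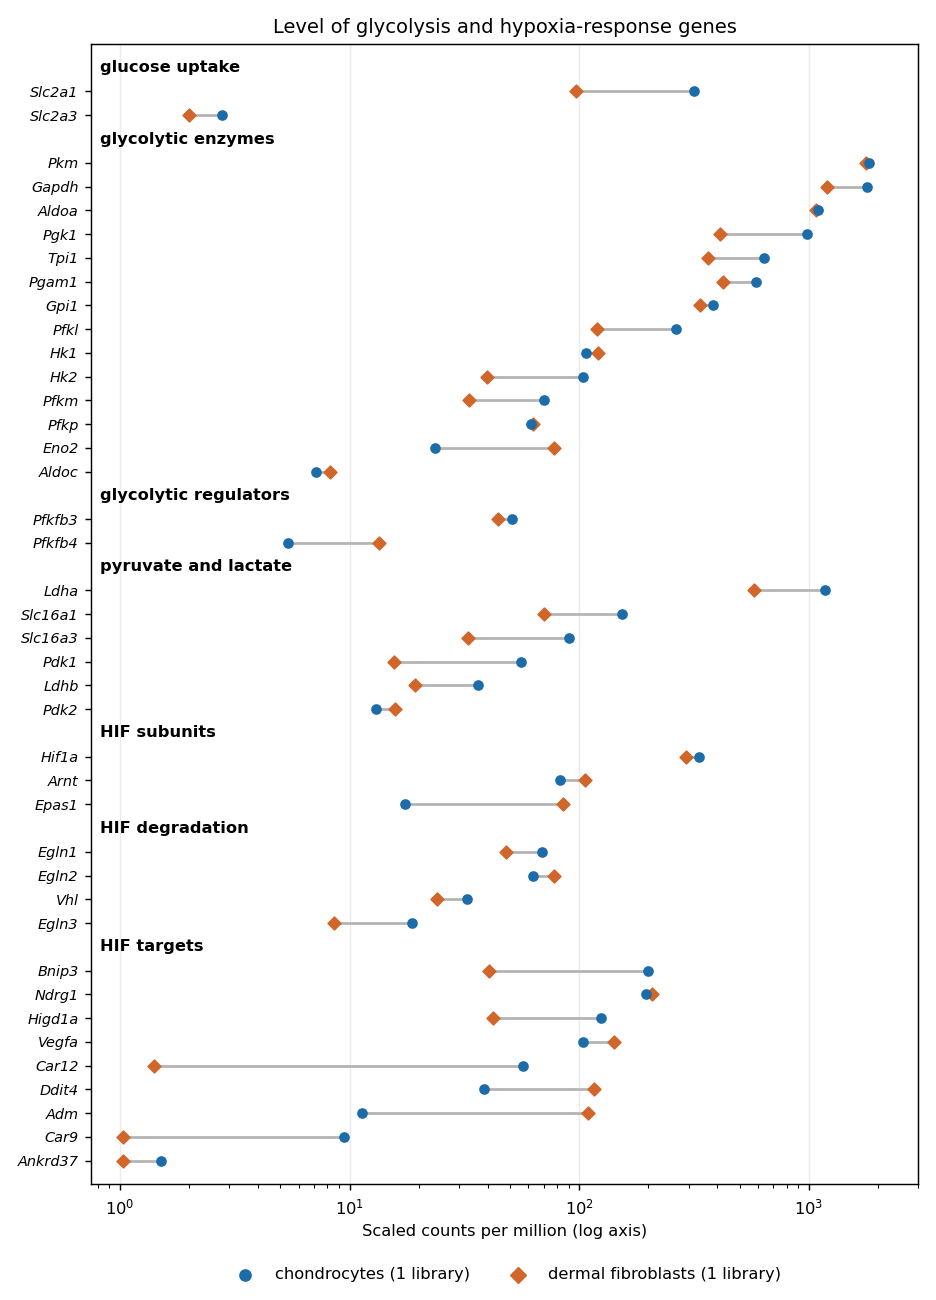
Scaled CPM (horizontal log axis) of the 40 genes with reads, by role, with 1 circle for the chondrocyte library and 1 diamond for the dermal fibroblast library; no error is drawn because each is 1 library. *Car12* (57.2 and 1.41) and *Adm* (11.3 and 109) show the widest gaps, in opposite directions, while *Pkm* and *Aldoa* nearly coincide.

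Of the glucose transporters, *Slc2a1*, which encodes the widely expressed GLUT1, was higher in chondrocytes. *Slc2a1* had 5674 chondrocyte reads (317 scaled CPM) and 1777 dermal fibroblast reads (96.5 scaled CPM), which gives 3.28-fold (interval 3.11 to 3.46). *Slc2a3*, the high-affinity transporter of neurons, had only 50 and 37 reads, and its interval of 0.889 to 2.18 included 1. *Slc2a1* therefore made up 99.1% and 98.0% of the reads of the pair.

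Among the hexokinases, which trap glucose in the cell by phosphorylation, the inducible form *Hk2* was higher in chondrocytes and the housekeeping form *Hk1* was not. *Hk2* had 1868 chondrocyte reads and 733 dermal fibroblast reads, which gives 2.62-fold (interval 2.40 to 2.85). *Hk1* had 1924 and 2235 reads, a fold of 0.884 (interval 0.831 to 0.940). Of the reads of these 2 genes, *Hk2* took 49.3% in chondrocytes and 24.7% in dermal fibroblasts, and per kilobase 58.1% and 31.9%. Per-kilobase shares here and below use the merged length of all annotated exons, 8532 bases for *Hk1* and 5969 for *Hk2*. Their longest coding transcripts have 4278 and 5513 bases, so which of these genes leads per kilobase in chondrocytes depends on the length used. *Hk3*, outside the pair, had 111 and 263 reads. The odds of *Hk2* over *Hk1* reads were 2.96 times as large in chondrocytes (exact interval 2.66 to 3.29). Such a ratio within a library does not depend on how the libraries are scaled to each other.

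Phosphofructokinase commits sugar to glycolysis, and its liver and muscle forms were both over 2-fold higher in chondrocytes. *Pfkl* had 4709 and 2192 reads, a fold of 2.21 (interval 2.10 to 2.32), and *Pfkm* had 1257 and 611 reads, a fold of 2.11 (interval 1.92 to 2.33). The platelet form *Pfkp*, with 1104 and 1156 reads, had an interval that included 1 (0.902 to 1.07). Its share of phosphofructokinase reads was 15.6% in chondrocytes and 29.2% in dermal fibroblasts, and per kilobase 7.34% and 15%. The merged exon length of *Pfkp* is 9395 bases and its longest coding transcript has 4145, so its per-kilobase share also depends on the length used. *Pfkm* is the form of skeletal muscle, whose markers summed to a 1.42-fold higher level in chondrocytes, and *Eno3*, the muscle enolase, was 2.28-fold higher there (1282 and 578 reads). The part of muscle transcripts in the *Pfkm* value was not tested.

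The bifunctional PFKFB enzymes set the level of the main activator of phosphofructokinase. *Pfkfb3* was similar in the libraries, at 51.0 and 44.5 scaled CPM, with a fold of 1.15 (interval 1.04 to 1.26). *Pfkfb4* had fewer reads, 97 and 247, and was 2.48-fold higher in dermal fibroblasts. Of the reads of both genes, *Pfkfb4* took 9.58% in chondrocytes and 23.2% in dermal fibroblasts, and per kilobase 15.3% and 33.9%.

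The enzymes that follow differed in their folds. *Aldoa*, the main aldolase, had 19735 and 19751 reads and a fold of 1.03 (interval 1.01 to 1.05). *Pkm*, pyruvate kinase at the end of the pathway, had 32757 and 32587 reads and the same fold of 1.03 (interval 1.02 to 1.05). With total counts as the scaling, both were lower in chondrocytes, at log2 folds of -0.10 and -0.09. *Gpi1*, which converts glucose 6-phosphate to fructose 6-phosphate, had a fold of 1.13 (interval 1.09 to 1.17).

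Between these steps stood enzymes with larger folds. *Pgk1*, phosphoglycerate kinase, had 17538 chondrocyte reads and 7580 dermal fibroblast reads, which gives 2.38-fold (interval 2.31 to 2.44). *Tpi1*, triose phosphate isomerase, had a fold of 1.75 (11418 and 6697 reads), and *Pgam1*, phosphoglycerate mutase, had a fold of 1.39 (10542 and 7786 reads). *Gapdh*, often used as a reference gene, had 31951 and 22157 reads and a fold of 1.48 (interval 1.46 to 1.51). *Actb*, another common reference, had 45139 and 50469 reads and was slightly lower in chondrocytes, at a fold of 0.919. The ratio of *Gapdh* to *Actb* reads was 0.708 in chondrocytes and 0.439 in dermal fibroblasts, 1.61 times as large in the former (exact interval 1.58 to 1.65), so a fold normalised to *Gapdh* would differ from one normalised to *Actb* by that factor.

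The enolases could not be read in full. *Eno1*, the ubiquitous form, was listed at 0 in both libraries, whereas *Eno1b*, a near-identical copy annotated as a gene of its own, had 5747 and 2784 reads (fold 2.12, interval 2.03 to 2.22). Of the *Eno1* windows, 65.4% were found elsewhere in the genome and the others were not. How the counting assigned reads between *Eno1* and *Eno1b* was not given in the sources used here, so the 0 sets no upper limit on *Eno1*. *Eno2*, the neuronal form and none of whose windows was found elsewhere, went the other way, with 423 reads in chondrocytes and 1423 in dermal fibroblasts, 3.28-fold higher in dermal fibroblasts (interval 2.94 to 3.66). Among the 8 Schwann cell and neuron markers, *Tubb3* had 83 and 349 reads, *Snap25* was at 0 in dermal fibroblasts, and 4 of the 7 with at least 10 reads were over 2-fold higher in dermal fibroblasts, although *S100b*, which chondrocytes also express, brought the summed level to 167 scaled CPM in chondrocytes and 70.5 in dermal fibroblasts. The part of these cells in the *Eno2* value was not tested. *Aldoc*, the other isoform typical of brain, had 128 and 151 reads, with an interval that included 1 (0.683 to 1.11).

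Levels of different genes were compared per kilobase of exon (RPKM), with all exons that GENCODE vM1 lists for a gene merged into its length. That length is 2253 bases for *Gapdh* and 2391 for *Pkm*, whereas their longest coding transcripts have 1420 and 2221 bases. The order of genes with similar values therefore depends on the length used. *Gapdh* and *Pkm* led in both libraries, at 791 and 764 RPKM in chondrocytes and at 534 and 740.3 RPKM in dermal fibroblasts. In chondrocytes *Pgk1* (436), *Aldoa* (399.8), *Ldha* (394), *Pgam1* (321) and *Tpi1* (288) followed. In dermal fibroblasts *Aldoa* (389.6) came next, well above *Pgam1* (231), *Ldha* (194), *Pgk1* (183) and *Tpi1* (165). The median over genes with at least 10 reads was 5.27 RPKM in chondrocytes and 5.42 RPKM in dermal fibroblasts. The 15 glycolytic enzymes together took 0.757% of all chondrocyte reads and 0.634% of all dermal fibroblast reads.

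**Figure D2:**
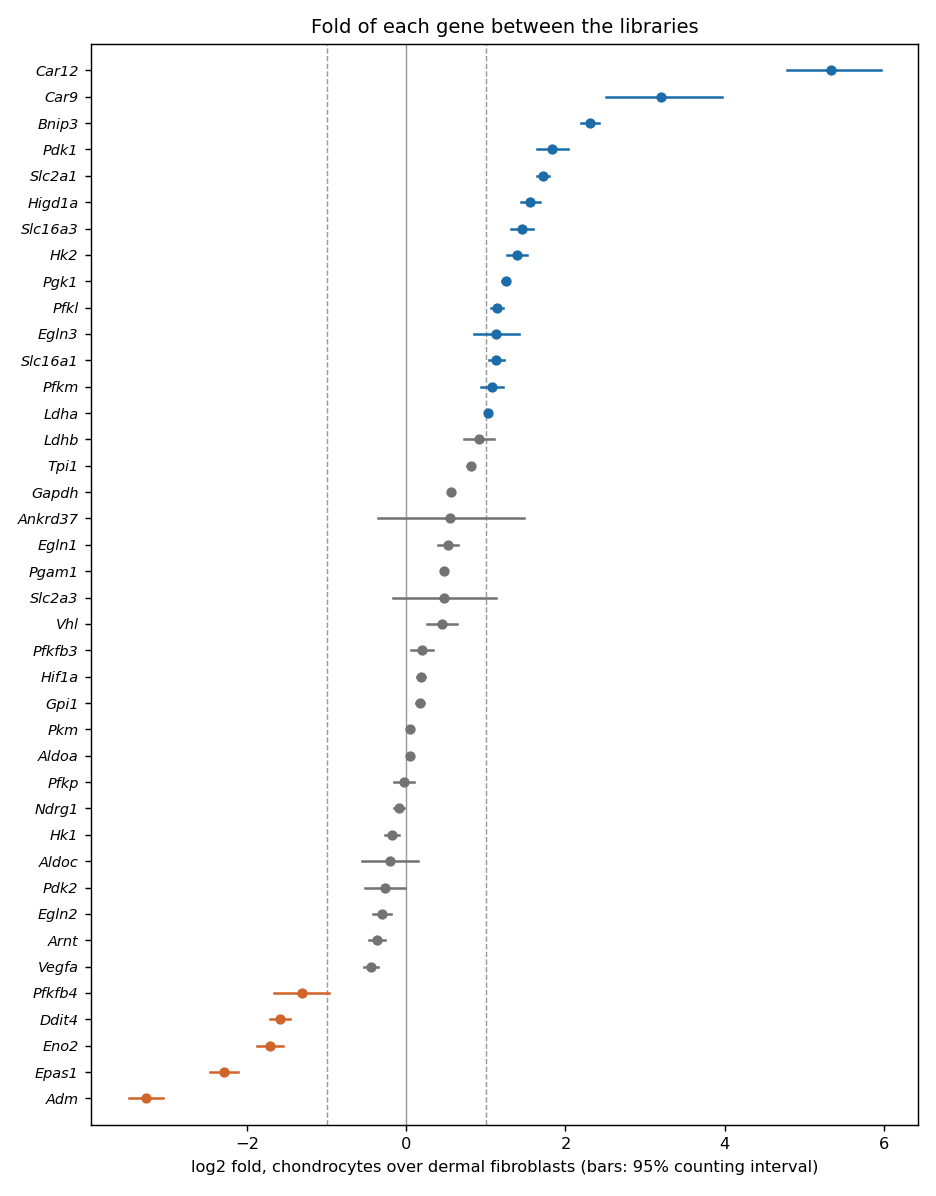
Log2 fold of chondrocytes over dermal fibroblasts for the 40 genes with reads, sorted; bars are 95% counting intervals (1 library per cell type) and dashed lines mark 2-fold. Blue points (14) lie over 2-fold higher in chondrocytes, from *Ldha* at 1.02 to *Car12* at 5.34, and orange points (5) over 2-fold higher in dermal fibroblasts, down to *Adm* at -3.27.

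Of the 6 genes that govern the fate of pyruvate and lactate, 4 were over 2-fold higher in chondrocytes (66.7%, background 12.0%) and none was over 2-fold higher in dermal fibroblasts (background 16.2%). With total counts as the scaling, *Ldha* and *Slc16a1* fell just short of 2-fold, at log2 folds of 0.89 and 0.99. *Ldha*, which makes lactate from pyruvate, had 21075 and 10657 reads, a fold of 2.03 (interval 1.98 to 2.08). *Ldhb* had a fold of 1.88 (653 and 356 reads), and *Ldha* took 97.0% and 96.8% of the reads of the pair. Relative to *Pkm*, whose product it uses, *Ldha* had 0.643 reads per *Pkm* read in chondrocytes and 0.327 in dermal fibroblasts.

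The lactate exporters followed the same direction. *Slc16a1*, which encodes MCT1, had 2747 and 1289 reads and a fold of 2.19 (interval 2.05 to 2.34). *Slc16a3*, which encodes MCT4, had 1620 and 605 reads and a fold of 2.75 (interval 2.50 to 3.02). In the annotation, 15.6% of the exon bases of *Slc16a3* overlap *Csnk1d* on the opposite strand, and *Csnk1d* had 2853 and 3177 reads. The kit keeps strand, but the strand setting of the counting was not given in the sources used here. *Bsg*, the chaperone that brings both exporters to the membrane, had a fold of 1.49 (12649 and 8730 reads).

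Pyruvate dehydrogenase kinases keep pyruvate out of the mitochondrial citric acid cycle, and the balance of *Pdk1* and *Pdk2* differed between the libraries. *Pdk1* had 1002 chondrocyte reads and 288 dermal fibroblast reads, which gives 3.57-fold (interval 3.13 to 4.09). *Pdk2* had 235 and 290 reads and a fold of 0.832 (interval 0.698 to 0.992). *Pdk1* thus took 81.0% of the reads of the pair in chondrocytes and 49.8% in dermal fibroblasts, and the odds were 4.29 times as large in chondrocytes (exact interval 3.44 to 5.36). Per kilobase the *Pdk1* share of the pair was 63.4% in chondrocytes and 28.8% in dermal fibroblasts, where *Pdk2* then led. *Pdk3*, outside the pair, had 737 and 634 reads, more than either *Pdk1* or *Pdk2* in dermal fibroblasts. Relative to *Pdha1*, the subunit that these kinases phosphorylate, the ratio of reads was 0.341 in chondrocytes and 0.0846 in dermal fibroblasts.

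Of the HIF subunits, a single gene was over 2-fold apart. *Hif1a* had 5945 and 5373 reads, or 332 and 292 scaled CPM, a fold of 1.14 (interval 1.10 to 1.18), and HIF-1α activity is known to be set mainly at the protein level, which RNA does not show. *Arnt* had 1476 and 1952 reads and a fold of 0.777 (interval 0.725 to 0.831). *Epas1* (chromosome 17 of GRCm38, 86753864 to 86833410), which encodes HIF-2α, had 314 chondrocyte reads and 1573 dermal fibroblast reads, 4.88-fold more in the latter after scaling (interval 4.32 to 5.52). *Epas1* thus accounted for 5.02% of the alpha-subunit reads in chondrocytes and 22.6% in dermal fibroblasts, 5.54 times the odds (exact interval 4.88 to 6.31). *Epas1* is also abundant in endothelium, and 6 of 7 endothelial markers were over 2-fold higher in dermal fibroblasts, with summed levels of 19.9 and 69.2 scaled CPM and none at 0. The part of endothelial transcripts in the *Epas1* value was not tested.

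Of the 4 genes that degrade HIF, *Egln3* was over 2-fold higher in chondrocytes and the others were within 2-fold. *Egln1*, the main oxygen sensor, had 1230 and 880 reads (fold 1.44, interval 1.32 to 1.57), and *Vhl* had 585 and 441 reads (fold 1.36, interval 1.20 to 1.55). *Egln2* had 1130 and 1435 reads (fold 0.809, interval 0.747 to 0.875). *Egln3* had fewer reads, 337 and 158, and a fold of 2.19 (interval 1.81 to 2.66), so its interval reached below 2-fold. The most frequent hydroxylase gene was therefore *Egln1* in chondrocytes (45.6% of the reads of the 3 genes) and *Egln2* in dermal fibroblasts (58.0%). Per kilobase, *Egln2* was the most frequent in both, at 45.9% in chondrocytes and 62.3% in dermal fibroblasts.

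**Figure D3:**
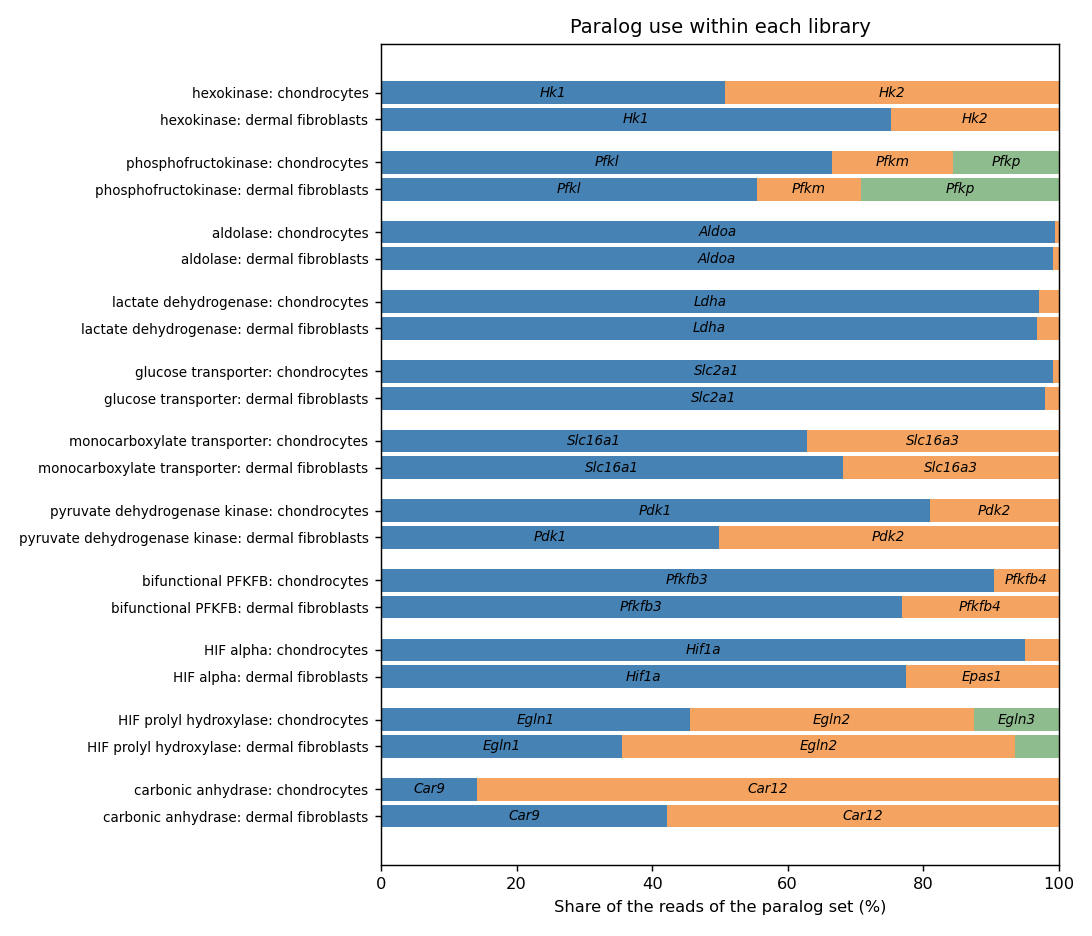
Share of the reads (%) of each paralog set taken by each of its genes, within the chondrocyte and within the dermal fibroblast library; enolases are left out because of *Eno1*. Hexokinase, pyruvate dehydrogenase kinase and HIF alpha sets differ in their makeup, *Hk2* taking 49.3% and 24.7%, *Pdk1* 81.0% and 49.8%, and *Epas1* 5.02% and 22.6%, while aldolase and lactate dehydrogenase sets were each led by the same gene at over 96%.

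The 9 genes listed as HIF targets were split. Of these, 4 (44.4%, background 12.0%) were over 2-fold higher in chondrocytes and 2 (22.2%, background 16.2%) in dermal fibroblasts. Over 2-fold higher in chondrocytes were *Car12*, *Car9*, *Bnip3* and *Higd1a*; over 2-fold higher in dermal fibroblasts were *Adm* and *Ddit4*; and *Vegfa*, *Ndrg1* and *Ankrd37* lay within 2-fold. The largest fold among the 40 genes with reads was that of *Car12* (chromosome 9 of GRCm38, 66712296 to 66766845), a carbonic anhydrase of the cell surface that helps to export acid. *Car12* had 1025 chondrocyte reads and 26 dermal fibroblast reads, which gives 40.5-fold (interval 27.5 to 62.3). *Car9*, the related enzyme that is a standard marker of hypoxia, had 170 and 19 reads, a fold of 9.19 (interval 5.71 to 15.6). Both genes were near 1 scaled CPM in dermal fibroblasts, and in chondrocytes *Car12* was at 57.2 and *Car9* at 9.48 scaled CPM.

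Both genes of mitochondrial proteins in this set were also higher in chondrocytes. *Bnip3*, which directs mitochondria to autophagy, had 3575 and 743 reads and a fold of 4.94 (interval 4.57 to 5.36), with the reservation on its copies given above. *Higd1a*, a hypoxia-induced protein of the respiratory chain, had 2234 and 778 reads and a fold of 2.95 (interval 2.72 to 3.20).

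In the other direction, *Adm* (chromosome 7 of GRCm38, 110627657 to 110629820), the precursor of the vasodilator adrenomedullin, had 202 chondrocyte reads and 2001 dermal fibroblast reads, 9.64-fold more in the latter after scaling (interval 8.34 to 11.2). *Ddit4*, a stress-induced inhibitor of mTORC1, had 694 and 2142 reads and stood 3.01-fold above chondrocytes in dermal fibroblasts (interval 2.76 to 3.28). *Ddit4* also responds to stresses other than hypoxia, and of 10 dissociation stress genes 3 were over 2-fold higher in chondrocytes and 1 in dermal fibroblasts, with summed levels of 723 and 698 scaled CPM. *Vegfa*, the angiogenic growth factor, had 1869 and 2609 reads and stood 1.36-fold above chondrocytes in dermal fibroblasts (interval 1.28 to 1.44). *Ndrg1* had 3500 and 3821 reads (fold 0.941, interval 0.898 to 0.985), and was slightly higher in chondrocytes when scaled by *Actb* or the housekeeping list. *Ankrd37* had only 27 and 19 reads, and its interval of 0.782 to 2.78 included 1.

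The start regions of 38 of the 41 genes were in the RefSeq promoter table. Either of the cores, ACGTG and also GCGTG, on any strand, occurred in the 250 bases before the start of 29 of them (76.3%), against 55.3% of 11051 genes with at least 10 reads and 38.6% of all 27025 genes in the table. ACGTG alone occurred in 47.4%, against 21.3% of genes with at least 10 reads, whereas GCGTG occurred in 19 of the 38 genes, near the 44.3% of those with at least 10 reads. The E-box CACGTG holds ACGTG on both strands and occurred in 15.8%, against 8.43%. Among genes over 2-fold higher in chondrocytes, 13 of 14 had either core, 10 had ACGTG and 6 had GCGTG (42.9%). Among the 4 tabulated genes over 2-fold higher in dermal fibroblasts, 3 had either core and 1 had ACGTG, and among the 19 within 2-fold, 12 had either core and 7 had ACGTG. The median GC content of the windows also differed, at 65.2% for the genes higher in chondrocytes, 55.6% for those higher in dermal fibroblasts and 59.2% for those within 2-fold, and its part in the matches was not tested. *Car12* and *Eno2*, on opposite sides of the comparison, had neither in this window; for *Car12* the window lies inside the span that RefSeq gives the gene. These matches are letters in a window, without a measurement of binding. Some of the 41 genes were chosen as well-known HIF targets, so a higher share of cores among them than among all genes is no independent result.

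Wider lists of related pathways were read against the 12.0% of all genes over 2-fold higher in chondrocytes and the 16.2% over 2-fold higher in dermal fibroblasts. None of the 8 pentose phosphate pathway genes and none of 13 genes of oxidative phosphorylation was over 2-fold apart in either direction, with median log2 folds of -0.09 and -0.07; *Atp5b* had 17856 and 19245 reads, and *Taldo1* had 2091 and 2026. Among 16 genes of pyruvate entry and gluconeogenesis, 2 were over 2-fold higher in chondrocytes (12.5%) and 3 in dermal fibroblasts (18.8%), both near these shares, among them *Pck1* (15 and 146 reads, 9.48-fold higher in dermal fibroblasts). *Pck1* is typical of fat, and *Adipoq* of adipocytes had 136 and 1397 reads; the 6 adipocyte markers summed to 136 and 342 scaled CPM and their part was not tested. Among 14 glycogen genes with reads, 3 were over 2-fold higher in each direction (21.4%). *Ppp1r3c*, which targets phosphatase to glycogen, and *Pygl*, a glycogen phosphorylase, were 2.36-fold and 2.26-fold higher in chondrocytes. *Gyg*, the primer of glycogen synthesis, was 4.22-fold higher in dermal fibroblasts. *Pygb*, another glycogen phosphorylase, was 2.24-fold higher in dermal fibroblasts, with 1015 and 2333 reads against 883 and 402 for *Pygl*. Among 12 further glycolysis genes, 3 were over 2-fold higher in each direction (25%), and *Bpgm*, which makes the bisphosphoglycerate of red cells, was 5.23-fold higher in dermal fibroblasts (178 and 956 reads), while the globin genes tested were at 0 in both libraries.

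Of the 14 glycolytic enzymes with reads, 10 were higher in chondrocytes and 4 in dermal fibroblasts, with a median log2 fold of 0.32. Over 2-fold apart were 4 in favour of chondrocytes (28.6%, background 12.0%) and 1 in favour of dermal fibroblasts (7.14%, background 16.2%). Proliferation genes were also higher in chondrocytes. All 10 were higher there, against 7365 of the 14730 genes with at least 10 reads, and 3 were over 2-fold higher (30.0%, background 12.0%). Their summed levels were 1222 and 657 scaled CPM, and *Mki67* had 4387 and 2465 reads. The part of proliferation in the values of the glycolytic genes was not tested.

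**Figure D4:**
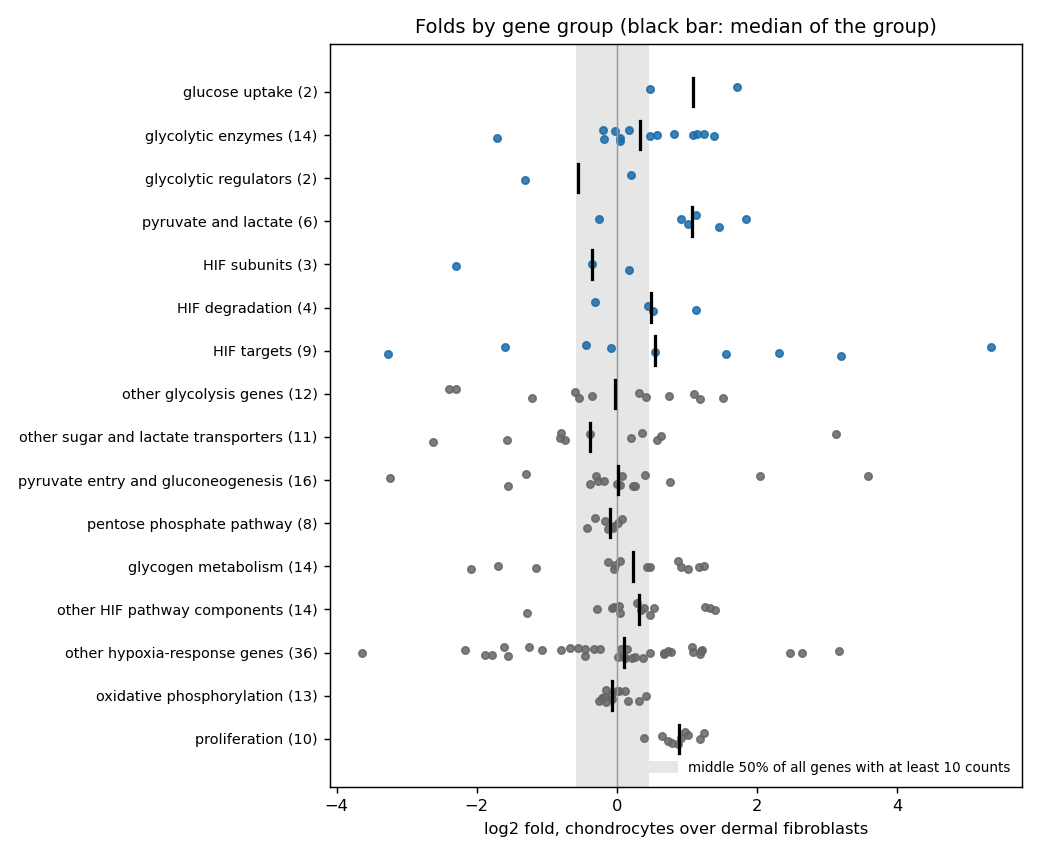
Log2 fold of chondrocytes over dermal fibroblasts for each gene with at least 10 reads (points), by group, the 41 genes in blue and wider lists in grey; the number of genes stands in brackets, black bars are group medians and the grey band holds the middle 50% of all genes. The pyruvate and lactate group has a median of 1.08, whereas HIF targets spread from -3.27 to 5.34 and oxidative phosphorylation stays close to 0.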

How the data were processed

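RNA was measured in 1 library per cell type. According to the methods and labels, the authors called bases with CASAVA 1.8.2, aligned single reads of 75 bases from strand-keeping libraries on mm10 with TopHat2 2.0.13, Bowtie2 2.2.3 and SAMtools 0.1.19, and deposited raw counts per gene symbol, not scaled for depth. The counting program, annotation and strand setting are not given in the sources used here.

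TMM factors (edgeR 4.0.16, R 4.3.3) were computed over all 24421 rows, and a floor of 3 reads was applied to each count entering a ratio. Intervals (scipy 1.17.1) are 95% Clopper-Pearson, or exact conditional for ratios of odds, and reflect counting error alone. They treat each read as independent. PCR copies of a molecule were not marked by identifiers, so the intervals may be too narrow even for counting error. With 1 library per cell type no test was possible. GENCODE vM1 gave exon lengths, with all listed exons of a gene merged, for 13529 (91.8%) of the genes with at least 10 reads. Positions and promoters are RefSeq on GRCm38.p6; copies were searched in NCBIM37. The functions were tested on simulated data.

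The 41 genes and all lists were chosen with earlier results of these data known. Named genes were drawn from the 41 and from the 2 highest and 2 lowest folds of each wider pathway list among genes with at least 100 reads. The marker lists gave their 3 most abundant genes. Not every gene that these rules give is named in the text. *Lum*, *Matn1*, *Eno1b*, *Snap25*, *Csnk1d*, *Pdha1*, *Pdk3*, *Hk3* and *B2m* were added after their values were seen. Alternatives were 6 other scalings (total counts, DESeq2 1.42.0 size factors, upper quartile, total counts without the 10 most abundant genes, *Actb*, a housekeeping list), floors of 1 and 10 reads, a pseudocount of 1, other fold thresholds and filters on low counts.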

Additional observations from a re-analysis of the deposited data

How the results depend on the processing

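No paired analysis was possible because only 1 library per group exists. The 14 genes called in favour of chondrocytes numbered between 10 and 16 under the 6 other scalings, the floors, the pseudocount, the filters on low counts, the interval rule and a threshold of 1.5-fold, and the 5 called in favour of dermal fibroblasts numbered 4 or 5. A change of scaling moves the folds of all genes, and the share of all genes is not given under the other scalings. Whether the excess over all genes holds under them is therefore not shown. With a threshold of 4-fold they were 3 (*Car12*, *Car9*, *Bnip3*) and 2 (*Adm*, *Epas1*), because a stricter threshold keeps fewer genes. The median log2 fold (0.47) ranged from 0.34 with total counts to 0.66 with the housekeeping list under the alternatives set at the start. It was 0.20 without the genes that have at least 10% of their windows elsewhere in the genome, an alternative added after the data were seen. Relative to TMM, total counts moved all log2 folds by -0.14, *Actb* by 0.12 and the housekeeping list by 0.19. That list holds *B2m*, which was 5.73-fold higher in dermal fibroblasts and the only 1 of its 10 genes over 2-fold apart. The list was not tried without *B2m*. Of 360 folds of single genes under alternatives, 83 fell outside the interval reported above, and 9, in the 5 genes *Aldoa*, *Pkm*, *Pfkp*, *Ndrg1* and *Hk1*, changed direction. No gene over 2-fold apart did so. Of 52 paralog shares, 41 left their interval when reads were taken per kilobase. Depth limits *Slc2a3* and *Ankrd37*, which had under 100 reads in both libraries, and *Car9* and *Car12* in dermal fibroblasts.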

Other observations

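Outside the 41 genes, 36 of 38 further hypoxia-response genes had at least 10 reads, and they split evenly, with 8 over 2-fold higher in chondrocytes (22.2%, against 12.0% of all genes) and 8 over 2-fold higher in dermal fibroblasts (22.2%, against 16.2%). The list was chosen with earlier results of these data known, and apart from *Ak4*, *Plod2*, *Igfbp3* and *Rragd* its genes are named here after their values were seen. On the chondrocyte side, *Ak4*, a mitochondrial adenylate kinase, had 2038 and 233 reads, a fold of 8.98 (interval 7.84 to 10.3). *Plod2*, a lysyl hydroxylase of collagen, had 11831 and 1950 reads, a fold of 6.23 (interval 5.94 to 6.54). *Stc2* was 5.54-fold higher, and *P4ha1*, the catalytic subunit of collagen prolyl hydroxylase, and *Ero1l*, an oxidase of disulfide formation in the endoplasmic reticulum, were 2.10-fold and 2.11-fold higher.

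On the dermal fibroblast side, *Igfbp3*, a binding protein of insulin-like growth factors, had 838 and 10717 reads and was 12.5-fold higher (interval 11.6 to 13.4). *Rragd*, a GTPase of amino acid sensing, was 4.46-fold higher. *Cxcl12*, a chemokine, was 3.68-fold higher, *Bhlhe40*, a transcriptional repressor, was 3.44-fold higher, and *Lox*, which crosslinks collagen, was 2.93-fold higher (11608 and 34920 reads). Among 14 further HIF pathway components with at least 10 reads, *Cited2*, an inhibitor of HIF, was 2.51-fold higher in chondrocytes. *Arnt2*, the neuronal partner of HIF, was 2.42-fold higher in dermal fibroblasts. In a list of further sugar and lactate transporters, 11 genes had at least 10 reads. Over 2-fold higher were 1 in chondrocytes (9.09%, background 12.0%) and 2 in dermal fibroblasts (18.2%, background 16.2%). *Slc2a5*, the fructose transporter, named after its values were seen, had 34 reads in chondrocytes and 4 in dermal fibroblasts (fold 8.73, interval 3.11 to 33.9). *Slc2a6*, another sugar transporter gene, had 31 and 197 reads and was 6.19-fold higher in dermal fibroblasts.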
